A study of Homo sapiens with 66 samples.

Results

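Mediator is a large complex that carries signals from transcription factors at enhancers to RNA polymerase II at promoters, and its head module contacts the polymerase. MED6 and MED28 are both placed in this head module, MED6 close to the border with the middle module. The comparison asked whether acute loss of either of these head subunits changes the same transcripts by the same amount: it sets the effect of the degrader in the MED6 line against its effect in the MED28 line. Its members are 12 of the 66 libraries of the series, chosen by line and treatment alone.

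The cells were KBM7, a near-haploid human line from chronic myeloid leukaemia. The 4 groups were the MED6-dTAG line with dTAG7, the MED6-dTAG line with DMSO, the MED28-dTAG line with dTAG7 and the MED28-dTAG line with DMSO, with 3 libraries each and 6 h of exposure. dTAG7, given at 500 nM, joins an engineered FKBP12 tag to the ubiquitin ligase that contains cereblon, so that a tagged protein is degraded, while DMSO is the solvent alone. The labels do not state whether a line is 1 clone, and protein levels were not part of the files, so the extent of loss of MED6 and MED28 is not known here. RNA was read by QuantSeq, which counts the 3' ends of polyadenylated RNA. Per the labels' protocols the 3 libraries of a group were triplicate wells, so p-values measure the spread between wells, which may be technical.

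The 12 libraries held 1767738 to 3784282 endogenous counts and 13652 to 35344 spike-in counts. All 7 myeloid blood cell markers looked at were detected, with summed levels of 464 to 697 CPM in the MED6 line with dTAG7, against 919 to 929 CPM with DMSO, and 922 to 974 CPM in the MED28 line with dTAG7, against 984 to 1125 CPM with DMSO. The lower sum in the MED6 line with dTAG7 stands beside the falls described below, and its part in them was not tested. Of markers of other cells, 0 of 4 for fibroblasts were in the count table, and those for red cells and megakaryocytes summed to at most 4.39 CPM in any of the 12 libraries. The other markers were not all absent: 4 of 4 B cell markers were detected and summed to 54.9 to 93.8 CPM in the MED6 line with dTAG7 against 94.0 to 108 CPM with DMSO and 76.7 to 95.5 CPM in the MED28 line with dTAG7 against 84.0 to 90.8 CPM with DMSO, 4 of 5 T cell markers to 11.9 to 13.6 CPM in the MED6 line with dTAG7 against 14.7 to 19.7 CPM with DMSO and 28.3 to 38.8 CPM in the MED28 line with dTAG7 against 30.5 to 33.4 CPM with DMSO, and 2 of 5 epithelial markers (KRT8 and KRT18) to 23.5 to 35.2 CPM in the MED6 line with dTAG7 against 30.1 to 43.5 CPM with DMSO and 43.5 to 53 CPM in the MED28 line with dTAG7 against 29.7 to 41.9 CPM with DMSO. The part of these in the results was not tested. CPM here are counts scaled by each library's spike-in RNA, so that levels follow the RNA obtained per well. They compare 1 gene between libraries and not different genes with each other.

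Less RNA per spike-in was recovered after dTAG7 in the MED6 line than in the MED28 line, relative to each line's own DMSO, but the exact permutation test over 3 against 3 libraries could not pass the threshold. In each library the log2 ratio of endogenous to spike-in counts was 6.52, 6.82 and 6.82 in the MED6 line with dTAG7 (replicates A, B and C), against 7.02, 6.98 and 7.0 with DMSO. It was 7.17, 7.11 and 7.12 in the MED28 line with dTAG7, against 7.31, 7.17 and 7.17 with DMSO. The MED6 groups did not overlap, whereas the MED28 groups overlapped narrowly. dTAG7 left 82.3% of the DMSO ratio in the MED6 line (log2 change -0.28 ± 0.17) and 94.3% in the MED28 line (-0.08 ± 0.03, SD, n = 3 libraries with dTAG7 each). The difference was -0.20, with an exact two-sided permutation p of 0.1, the smallest that 3 against 3 allow. The permutation covered the dTAG7 libraries only, each minus the DMSO mean of its line. The spread of the DMSO libraries (SD 0.02 in the MED6 line and 0.08 in the MED28 line) did not enter it. Fewer cells and less RNA per cell cannot be told apart in these data.

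Replicate A of the MED6 line with dTAG7 stood apart. Its ratio lay below those of replicates B and C, and its counts differed from theirs by 20.2 and 16.3 times the sampling variance (chi-square per degree of freedom), against 2.24 between B and C. The other 3 groups gave 1.51 to 2.77. Without replicate A, 88.2% of the ratio was left in the MED6 line and the difference between the lines was -0.10.

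**Figure D1:**
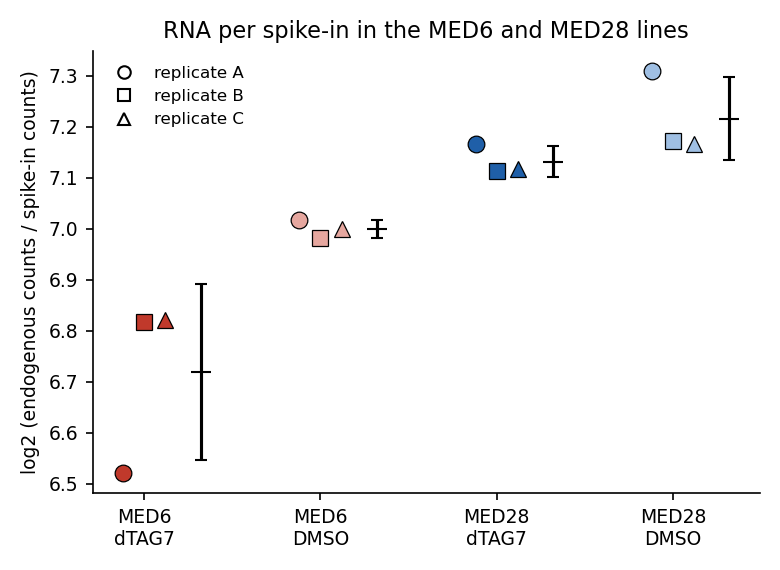
Log2 ratio of endogenous to spike-in counts (vertical axis) in each of the 12 libraries, by line and treatment (horizontal axis). Symbols are replicates A, B and C, and the bar beside them is the mean with the SD. Replicate A of the MED6 line with dTAG7, at 6.52, is the lowest of the 12 libraries.

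With all 12 libraries on the spike-in scale, dTAG7 lowered many more transcripts in the MED6 line than in the MED28 line, but this rested largely on 1 library and was not seen once libraries were scaled to their own genes. Genes were tested with edgeR's quasi-likelihood test on all 66 libraries and called at a Benjamini-Hochberg adjusted p under 0.05. In the MED6 line 2309 of 12515 genes tested fell (18.4%) and 97 rose (0.775%). In the MED28 line 509 fell (4.07%) and 97 rose (0.775%). TMM scaling, which assumes that most genes do not change, gave 470 falls (3.65%) and 374 rises (2.9%) in the MED6 line, against 558 falls (4.33%) and 270 rises (2.09%) in the MED28 line. Without replicate A of the MED6 line with dTAG7, 748 genes (5.89%) fell and 71 (0.559%) rose in the MED6 line, against 605 (4.76%) and 129 (1.02%) in the MED28 line, on the spike-in scale. Under TMM without it, 323 genes (2.47%) fell and 219 (1.68%) rose in the MED6 line, against 675 (5.17%) and 360 (2.76%) in the MED28 line.

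Among genes called in both lines by edgeR, none had opposite signs, on either scale. On the spike-in scale 336 falls were shared, which is 14.6% of those in the MED6 line and 66% of those in the MED28 line, and 10 rises were shared (10.3% of each). Under TMM the shared falls numbered 155 (33.0% and 27.8%) and the shared rises 72 (19.3% and 26.7%). Without replicate A of the MED6 line with dTAG7, 243 falls were shared on the spike-in scale (32.5% of those in the MED6 line and 40.2% of those in the MED28 line), and 15 rises (21.1% and 11.6%). Across the 12515 genes the effects correlated with a Pearson's r of 0.31, and 0.27 under TMM. This is a description over genes, which are not independent replicates, and both effects come from the same fit and sequencing pool.

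The test of the difference itself, MED6 effect minus MED28 effect, called 39 of 12515 genes (0.312%). The MED6 effect was the lower in 36 (0.288%) and the higher in 3 (0.024%), and 1785 genes had an unadjusted p under 0.05. The median difference over all genes was -0.23 (log2) on the spike-in scale and 0.00 under TMM, so that a shift of this size separates the scales. TMM called 36 of 12892 genes (0.279%), with the MED6 effect lower in 14 (0.109%) and higher in 22 (0.171%). Of the 36 genes lower on the spike-in scale, 32 fell in the MED6 line with no call in the MED28 line, 3 rose in the MED28 line with no call in the MED6 line, and 1 fell in both.

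The number of calls depended on the libraries used. Without replicate A of the MED6 line with dTAG7 the difference was called in 13 genes (0.102%), with the MED6 effect lower in 10 (0.0787%) and higher in 3 (0.0236%). Under TMM without it the calls numbered 29 (0.222%), 10 lower (0.0766%) and 19 higher (0.146%). A fit on the 12 libraries alone called 0 genes by edgeR, with 1439 at an unadjusted p under 0.05 (0% called; DESeq2 on all 66 libraries called 175, or 2.46% of those it gave an adjusted p), and the same 12 libraries without replicate A of the MED6 line with dTAG7 called 124 lower and 18 higher (1.21%), among them 33 of the 39. The median SE of the difference was 0.29 on the log2 scale, and the smallest difference called was 0.60 in size.

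**Figure D2:**
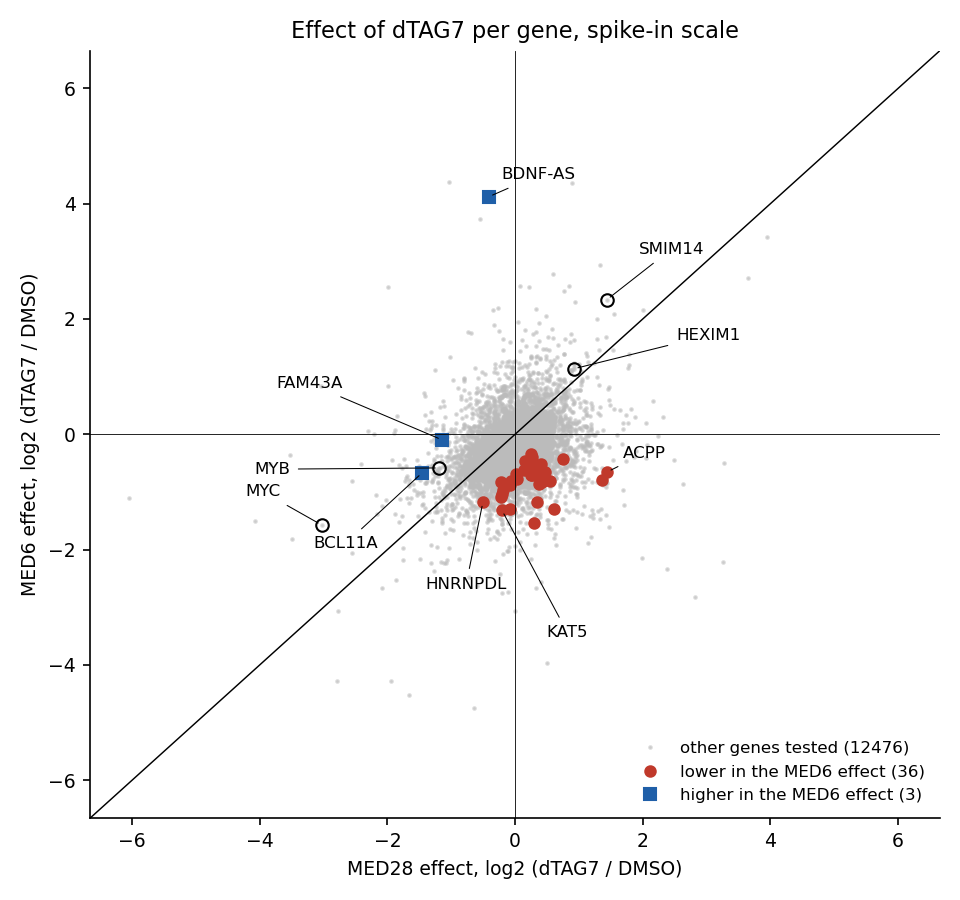
Log2 effect of dTAG7 in the MED6 line (vertical axis) against that in the MED28 line (horizontal axis) for the 12515 genes tested, on the spike-in scale. Filled symbols are genes called in the difference, 36 lower and 3 higher in the MED6 effect, open rings are named genes not called there, and the diagonal marks equal effects. Most filled circles lie below 0 on the vertical axis and near 0 on the horizontal axis.

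Called on both scales, and again on both without replicate A of the MED6 line with dTAG7, were 5 genes lower in the MED6 effect (KAT5, PBRM1, PHTF1, SNN and ACPP) and 2 higher (BCL11A and FAM43A). Of these PBRM1, PHTF1 and SNN lay close to the threshold without that library on the spike-in scale (adjusted p = 0.0497 each), and BCL11A was called in 7 of the 12 fits that left out 1 library. Another 7 genes were lower and 1 was higher under both scalings with all 12 libraries, which makes 15. None of the 15 was called with dTAG7 in wild-type cells, where edgeR called 0 of 12515 genes in all (490 at an unadjusted p under 0.05, and under TMM 0 with 345). Effects and differences are log2 values ± SE with 3 libraries in each group. The SEs come from the fit on all 66 libraries, with a spread shared by its 22 groups. Positions are those of GENCODE 29 on hg38. All adjusted p-values are from edgeR with Benjamini-Hochberg adjustment over all genes tested. For the difference in the 12 libraries alone they were 0.116 for FAM43A, 0.127 for KAT5 and SNN, and 0.183 for PBRM1, PHTF1, ACPP and BCL11A. Without replicate A of the MED6 line with dTAG7 those 12 gave these genes 4.84e-05 to 0.0122.

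KAT5, NBN, PBRM1 and ZMYND8, whose proteins act on chromatin or DNA breaks, fell in the MED6 line with no call in the MED28 line. They are described together by role, and no list of such genes was tested. KAT5 (chromosome 11, 65711996 to 65719604, plus strand) encodes the acetyltransferase TIP60, which modifies histones and the damage kinase ATM. KAT5 had 59.2, 68.2 and 74.3 CPM in the MED6 line with dTAG7, against 142, 172 and 183 CPM with DMSO, and 164, 171 and 174 CPM in the MED28 line with dTAG7, against 222, 193 and 174 CPM with DMSO. Levels with dTAG7 lay below every DMSO library in the MED6 line by a wide margin and overlapped the DMSO libraries narrowly in the MED28 line. The log2 effects of dTAG7 were -1.32 ± 0.14 in the MED6 line and -0.21 ± 0.13 in the MED28 line, and the difference was -1.11 ± 0.19 (adjusted p = 0.00128) and -0.89 under TMM (adjusted p = 6.37e-04). It was called in each of the 12 fits that left out 1 library. ING3 (chromosome 7, 120950749 to 120977216, plus strand), a subunit of the same acetyltransferase complex, was singled out after its values were seen. ING3 had 30.3, 65.5 and 67.6 CPM in the MED6 line with dTAG7, against 111, 125 and 94.8 CPM with DMSO, and 123, 129.9 and 117 CPM in the MED28 line with dTAG7, against 138, 106 and 121 CPM with DMSO. Its log2 effects were -1.03 ± 0.21 in the MED6 line and 0.02 ± 0.19 in the MED28 line, and the difference missed the threshold at -1.06 ± 0.28 (adjusted p = 0.0704) but was -0.86 under TMM (adjusted p = 0.0452). Without replicate A of the MED6 line with dTAG7 the TMM call was lost, at -0.63 (adjusted p = 0.192).

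The promoter of KAT5 is shown because KAT5 was lower in the MED6 effect, and those of FAM43A and MYB because their estimates were lower in the MED28 line, a difference called on both scales for FAM43A and under TMM alone for MYB. Each runs from 250 bases before to 50 bases after the RefSeq start of the gene on GRCh38.p14, 5′ to 3′, with capitals for motifs found on either strand.
KAT5 promoter, chr11:65712002-65712301, plus strand: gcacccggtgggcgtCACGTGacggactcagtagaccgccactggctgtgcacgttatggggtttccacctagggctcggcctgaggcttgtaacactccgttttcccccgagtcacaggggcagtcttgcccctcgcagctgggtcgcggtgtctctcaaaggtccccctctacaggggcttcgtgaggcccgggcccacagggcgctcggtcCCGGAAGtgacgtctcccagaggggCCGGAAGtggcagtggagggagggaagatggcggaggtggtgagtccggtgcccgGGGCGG
FAM43A promoter, chr3:194685633-194685932, plus strand: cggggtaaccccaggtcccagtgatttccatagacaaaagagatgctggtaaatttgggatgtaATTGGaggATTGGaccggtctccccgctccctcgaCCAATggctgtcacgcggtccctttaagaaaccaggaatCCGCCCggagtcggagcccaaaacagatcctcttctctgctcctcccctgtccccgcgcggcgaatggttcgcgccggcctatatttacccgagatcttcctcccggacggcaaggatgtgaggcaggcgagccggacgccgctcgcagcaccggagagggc
MYB promoter, chr6:135181058-135181357, plus strand: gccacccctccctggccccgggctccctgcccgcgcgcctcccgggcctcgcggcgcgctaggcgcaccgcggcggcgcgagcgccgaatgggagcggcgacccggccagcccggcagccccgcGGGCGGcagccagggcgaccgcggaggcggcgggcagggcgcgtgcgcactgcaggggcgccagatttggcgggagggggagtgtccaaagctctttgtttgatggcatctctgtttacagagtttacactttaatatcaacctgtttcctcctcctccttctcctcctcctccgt
The E-box was searched as CACGTG, the ETS motif as CCGGAAG, the CCAAT box by its own letters, the GC box as GGGCGG and the TATA box as TATAAA, each on both strands, and no hits overlapped. The KAT5 window holds 1 E-box, 2 ETS motifs and 1 GC box, the FAM43A window 3 CCAAT boxes and 1 GC box, and the MYB window 1 GC box. Among 34943 RefSeq promoter windows of this length, 7.23% hold an E-box, 10.2% an ETS motif, 34.6% a CCAAT box, 44.9% a GC box and 11.6% a TATA box. These are matches of letters and not measured binding.

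NBN (chromosome 8, 89933336 to 90003228, minus strand) encodes nibrin, a member of the MRE11 complex that senses DNA breaks. NBN had 72.2, 129 and 104 CPM in the MED6 line with dTAG7, against 223, 195 and 204 CPM with DMSO, and 215, 223 and 208 CPM in the MED28 line with dTAG7, against 280.1, 231 and 232 CPM with DMSO. The MED6 groups were far apart, while the MED28 groups stood close to each other without overlap. Its effects were -1.03 ± 0.14 in the MED6 line and -0.20 ± 0.13 in the MED28 line, with a difference of -0.83 ± 0.19 (adjusted p = 0.0285) and -0.62 under TMM (adjusted p = 0.0183). PBRM1 (chromosome 3, 52545352 to 52685917, minus strand), the polybromo subunit of the PBAF chromatin remodeller, had 117, 139 and 139 CPM in the MED6 line with dTAG7, against 225, 215 and 199 CPM with DMSO, and 269.9, 223 and 238 CPM in the MED28 line with dTAG7, against 260.2, 230.4 and 235 CPM with DMSO. Its MED28 groups overlapped. The effects were -0.70 ± 0.10 in the MED6 line and 0.01 ± 0.09 in the MED28 line, and the difference was -0.70 ± 0.13 (adjusted p = 0.0073) and -0.48 under TMM (adjusted p = 0.0351). ZMYND8 (chromosome 20, 47209214 to 47356889, minus strand) encodes a reader of acetylated and methylated histones. ZMYND8 had 85.5, 111 and 122 CPM in the MED6 line with dTAG7, against 244, 221 and 214 CPM with DMSO, and 240.2, 244 and 246 CPM in the MED28 line with dTAG7, against 311, 251 and 289 CPM with DMSO. The difference was -0.87 ± 0.18 (adjusted p = 0.0184) and -0.65 under TMM (adjusted p = 9.36e-04), with effects of -1.09 ± 0.13 in the MED6 line and -0.22 ± 0.13 in the MED28 line.

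PBRM1 was called in all 12 fits that left out 1 library, but calls ended for ZMYND8 without MED28 DMSO B, MED6 DMSO A or MED6 dTAG7 A (adjusted p 0.0579 to 0.0966) and NBN when any library other than MED28 DMSO A, MED6 dTAG7 B or MED6 dTAG7 C was left out (adjusted p 0.0546 to 0.167). Under TMM without replicate A of the MED6 line with dTAG7 the NBN difference was -0.51 (adjusted p = 0.0944), not called. On the opposite strand KAT5 overlaps RNASEH2C, NBN overlaps DECR1 and PBRM1 overlaps SMIM4 and GNL3, all present in the count table, and ZMYND8 overlaps AL031666.3 on its own strand. The sources used here do not state whether counting used the strand, so reads of such pairs cannot be told apart.

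HNRNPDL and SRSF3, which both encode RNA-binding proteins, were lower in the MED6 effect on the spike-in scale. HNRNPDL (chromosome 4, 82422564 to 82430408, minus strand) encodes a heterogeneous nuclear ribonucleoprotein that binds pre-mRNA. HNRNPDL had 364, 527 and 487 CPM in the MED6 line with dTAG7, against 1070.1, 1030.5 and 1016 CPM with DMSO, and 852, 874 and 869 CPM in the MED28 line with dTAG7, against 1325, 1180.2 and 1176 CPM with DMSO. It fell in both lines, and more in the MED6 line (-1.18 ± 0.10 in the MED6 line and -0.50 ± 0.10 in the MED28 line), with a difference of -0.67 ± 0.15 (adjusted p = 0.0216) and -0.46 under TMM (adjusted p = 0.0212). SRSF3 (chromosome 6, 36594353 to 36605600, plus strand), a splicing factor singled out after its values were seen, was called on the spike-in scale only. SRSF3 had 329, 385 and 407 CPM in the MED6 line with dTAG7, against 700.0, 629 and 669 CPM with DMSO, and 717, 684 and 658 CPM in the MED28 line with dTAG7, against 862, 770.5 and 764 CPM with DMSO. Its effects were -0.83 ± 0.09 in the MED6 line and -0.22 ± 0.09 in the MED28 line, and the difference was -0.62 ± 0.13 (adjusted p = 0.0216) and -0.39 under TMM (adjusted p = 0.0724). Calls ended for HNRNPDL without MED28 DMSO B, MED28 DMSO C, MED6 DMSO A or MED6 dTAG7 A (adjusted p 0.064 to 0.117) and for SRSF3 without MED28 DMSO B, MED28 DMSO C, MED28 dTAG7 A, MED6 DMSO A or MED6 dTAG7 A (adjusted p 0.0687 to 0.101). Under TMM without replicate A of the MED6 line with dTAG7 the HNRNPDL difference was -0.42 (adjusted p = 0.0745), not called.

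PHTF1 and SNN fell in the MED6 line while their estimates in the MED28 line were above 0. PHTF1 (chromosome 1, 113696831 to 113759489, minus strand), named for a putative homeodomain, had effects of -0.86 ± 0.17 in the MED6 line and 0.37 ± 0.16 in the MED28 line. PHTF1 had 18.4, 30.4 and 32.3 CPM in the MED6 line with dTAG7, against 46.9, 53.6 and 44.6 CPM with DMSO, and 67.4, 53.4 and 57.1 CPM in the MED28 line with dTAG7, against 50.5, 40.9 and 45.8 CPM with DMSO. All DMSO libraries of the MED6 line lay above its dTAG7 libraries, and all DMSO libraries of the MED28 line lay below its dTAG7 libraries. The difference was -1.23 ± 0.23 (adjusted p = 0.0073) and -1.01 under TMM (adjusted p = 0.0108). SNN (chromosome 16, 11668414 to 11679159, plus strand) encodes stannin, a small membrane protein. SNN had 10.2, 14.7 and 10.1 CPM in the MED6 line with dTAG7, against 22.7, 28.8 and 27.0 CPM with DMSO, and 30.9, 29.6 and 30.4 CPM in the MED28 line with dTAG7, against 22, 25.3 and 24.4 CPM with DMSO. Here too the groups of each line did not overlap. The effects were -1.18 ± 0.23 in the MED6 line and 0.34 ± 0.21 in the MED28 line, and the difference was -1.52 ± 0.30 (adjusted p = 0.0119) and -1.28 under TMM (adjusted p = 0.0183). SNN and PHTF1 were called in each fit that left out 1 library, and SNN overlaps TXNDC11 on the opposite strand. The MED28 effects on PHTF1 and SNN were not called (adjusted p = 0.209 and 0.438 by edgeR).

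STX3, IDS, DSC2 and MARCKS also had a lower MED6 effect, with calls that were less stable. STX3, which encodes a syntaxin that fuses vesicles with the plasma membrane, had a difference of -1.13 ± 0.25 (adjusted p = 0.0216) and -0.91 under TMM (adjusted p = 0.0183). IDS, the lysosomal iduronate sulfatase, had -1.04 ± 0.26 (adjusted p = 0.0484) and -0.82 under TMM (adjusted p = 0.0452). DSC2, a desmosomal cadherin, had -0.93 ± 0.20 (adjusted p = 0.0216) and -0.72 under TMM (adjusted p = 0.0178). MARCKS, an actin-binding substrate of protein kinase C, had -0.79 ± 0.18 (adjusted p = 0.0216) and -0.58 under TMM (adjusted p = 0.0452). These 4 genes fell in the MED6 line, by edgeR with adjusted p-values of 9.13e-04 to 0.00725, and none was called in the MED28 line (0.0992 to 0.412), though under TMM STX3 and DSC2 rose there (0.51 and 0.41, adjusted p = 0.00882 and 0.00861). In the MED6 line the falls of STX3, IDS and DSC2 were lost under TMM (adjusted p = 0.0875, 0.0539 and 0.0821 by edgeR) and, on the spike-in scale, without replicate A of the MED6 line with dTAG7 (0.137, 0.0889 and 0.153). That of MARCKS held in each (0.0427 and 0.0364) and was lost with both (0.178). Under TMM without that library none of the 4 differences was called (adjusted p 0.0724 to 0.108). With DMSO, MARCKS had 172, 173 and 179 CPM in the MED6 line and 253, 216 and 210.3 CPM in the MED28 line. This difference (MED6 minus MED28) was -0.37 on the spike-in scale and -0.13 under TMM. It was not called by edgeR on either scale (adjusted p = 0.0744 and 0.947). Over all genes the median difference between the lines with DMSO was -0.24 on the spike-in scale. The calls ended for STX3 without MED28 DMSO B, MED28 DMSO C, MED28 dTAG7 A, MED6 DMSO A, MED6 DMSO B or MED6 dTAG7 A (adjusted p 0.0563 to 0.117), IDS when any library other than MED28 DMSO A, MED28 dTAG7 C, MED6 dTAG7 B or MED6 dTAG7 C was left out (adjusted p 0.0521 to 0.179), DSC2 without MED28 DMSO B, MED28 DMSO C, MED6 DMSO A, MED6 DMSO B or MED6 dTAG7 A (adjusted p 0.058 to 0.117) and MARCKS when any library other than MED28 DMSO A, MED28 dTAG7 B, MED28 dTAG7 C, MED6 dTAG7 B or MED6 dTAG7 C was left out (adjusted p 0.0563 to 0.128).

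ACPP (chromosome 3, 132317367 to 132368298, plus strand), which encodes the secreted prostatic acid phosphatase, had the largest difference of the genes called under both scalings that were lower in the MED6 effect, and dTAG7 raised it in the MED28 line. ACPP had 7.08, 6.14 and 4.20 CPM in the MED6 line with dTAG7, against 8.06, 6.58 and 12.5 CPM with DMSO, and 16.5, 18.3 and 19.8 CPM in the MED28 line with dTAG7, against 5.91, 8.08 and 6.11 CPM with DMSO. The MED6 groups overlapped and the MED28 groups did not. The effects were -0.65 ± 0.30 in the MED6 line and 1.45 ± 0.28 in the MED28 line, the first not called (adjusted p = 0.117 by edgeR) and the second called (adjusted p = 3.56e-04). The difference was -2.10 ± 0.41 (adjusted p = 0.00997) and -1.85 under TMM (adjusted p = 0.0183). Without replicate C of the MED6 line with DMSO it was -1.72 with an adjusted p of 0.0909.

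**Figure D3:**
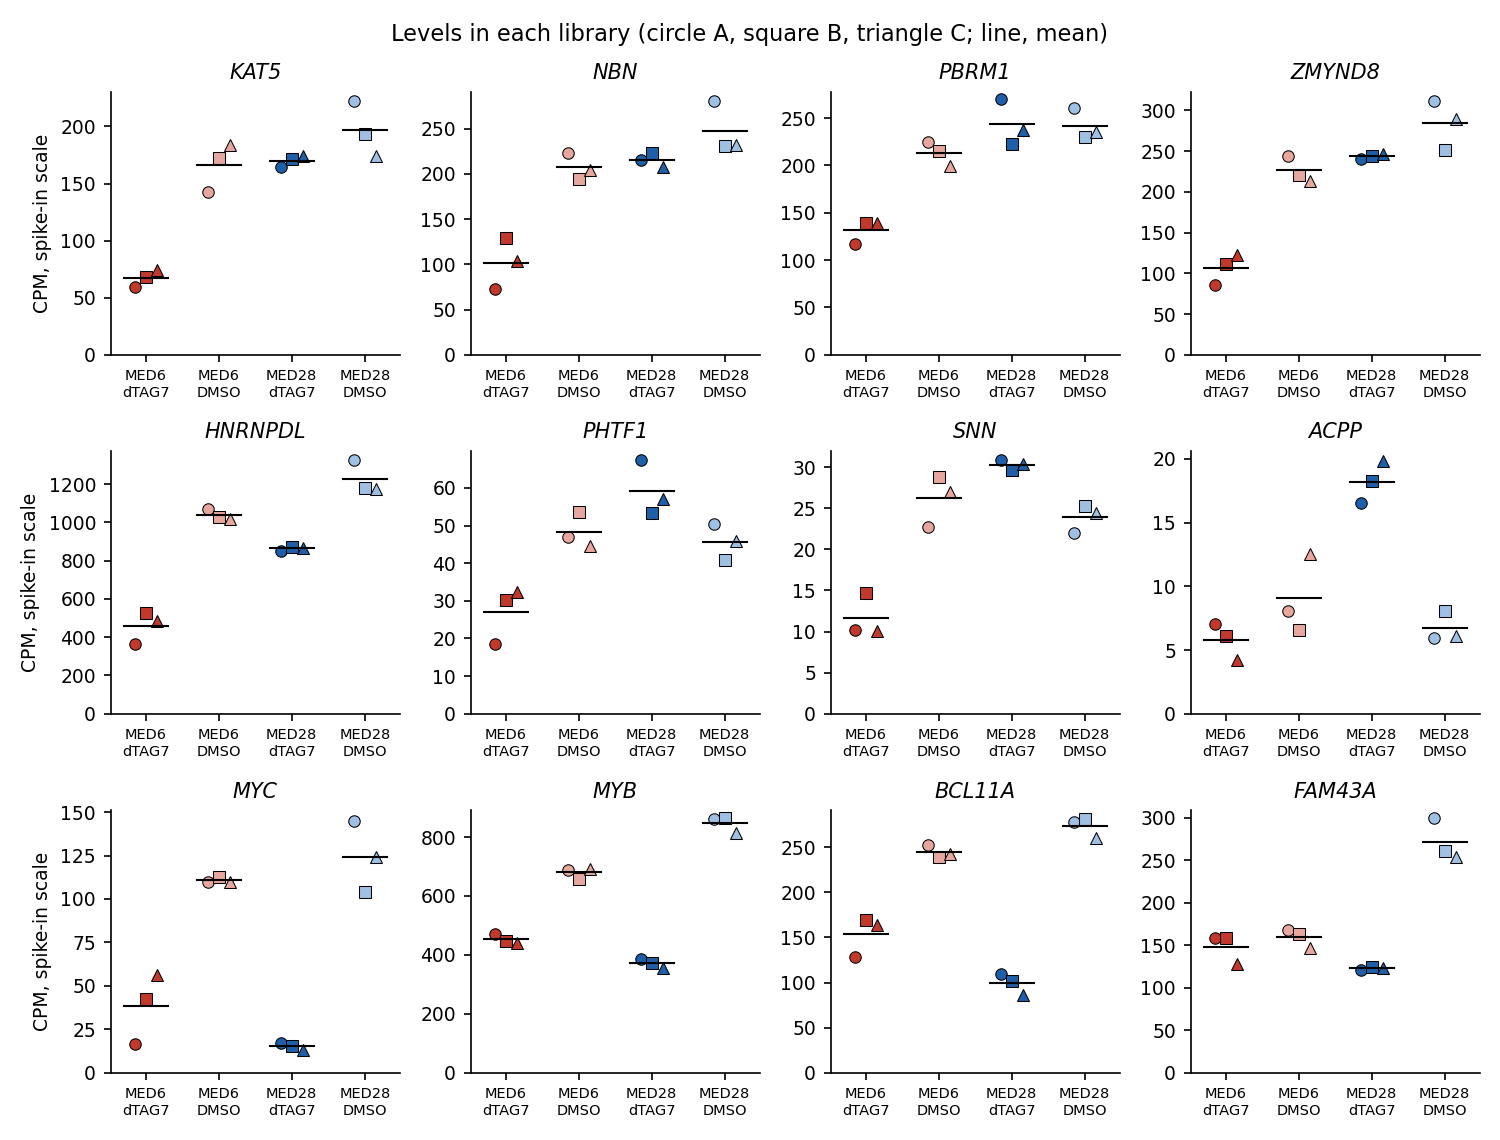
Levels of 12 genes in each library (vertical axes, CPM on the spike-in scale, from 0), by line and treatment (horizontal axes). Circles, squares and triangles are replicates A, B and C, and lines are group means. In the upper 5 panels through HNRNPDL the MED6 line with dTAG7 is the lowest group, and in the panels of MYC, MYB and BCL11A the MED28 line with dTAG7 is the lowest.

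BCL11A, MYB and MYC fell in both lines, with the lower estimates in the MED28 line. BCL11A (chromosome 2, 60450520 to 60555154, minus strand) encodes a zinc finger repressor of fetal globin genes that blood progenitors express. BCL11A had 129, 169.8 and 164 CPM in the MED6 line with dTAG7, against 253, 239 and 242 CPM with DMSO, and 109.7, 102 and 86.6 CPM in the MED28 line with dTAG7, against 278, 282 and 260.1 CPM with DMSO. All groups were separate, and the lowest levels were those of the MED28 line with dTAG7. The effects were -0.67 ± 0.12 in the MED6 line and -1.46 ± 0.13 in the MED28 line, and the difference was 0.79 ± 0.18 (adjusted p = 0.0216) and 1.01 under TMM (adjusted p = 2.10e-05). MYB (chromosome 6, 135181315 to 135219173, plus strand), a transcription factor of blood progenitors, showed the same order. MYB had 472, 448 and 441 CPM in the MED6 line with dTAG7, against 689, 659 and 693 CPM with DMSO, and 387, 374 and 355 CPM in the MED28 line with dTAG7, against 861, 866 and 815 CPM with DMSO. Its effects were -0.58 ± 0.11 in the MED6 line and -1.19 ± 0.11 in the MED28 line. The difference lay at the threshold on the spike-in scale, 0.60 ± 0.15 (adjusted p = 0.05002), and was 0.85 under TMM (adjusted p = 2.31e-05).

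MYC (chromosome 8, 127735434 to 127741434, plus strand), the growth regulator that drives ribosome production, fell in both lines. MYC had 16.4, 42.3 and 56.2 CPM in the MED6 line with dTAG7, against 109.9, 113 and 109.7 CPM with DMSO, and 17.4, 15.4 and 13.0 CPM in the MED28 line with dTAG7, against 145, 104 and 124 CPM with DMSO. The MED28 line with dTAG7 held all of the lowest levels except that replicate A of the MED6 line with dTAG7 fell inside its range. The effects were -1.57 ± 0.30 in the MED6 line and -3.03 ± 0.34 in the MED28 line, and the difference, 1.45 ± 0.46 (adjusted p = 0.124), was not called on the spike-in scale, with a 95% interval of 0.54 to 2.36. It was 1.64 under TMM (adjusted p = 0.0385), and 1.85 on the spike-in scale without replicate A of the MED6 line with dTAG7 (adjusted p = 0.0497 by edgeR). The call ended for BCL11A without MED28 DMSO B, MED28 dTAG7 C, MED6 DMSO A, MED6 DMSO B or MED6 DMSO C (adjusted p 0.0563 to 0.0966), and MYB was called only without MED6 dTAG7 B or MED6 dTAG7 C (adjusted p 0.0414 to 0.0417).

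Genes of a further group with the same order were singled out after their values were seen. ANGPT1, which encodes the ligand angiopoietin, had effects of -0.78 ± 0.12 in the MED6 line and -1.29 ± 0.12 in the MED28 line. CD3EAP, a subunit of RNA polymerase I, had effects of -0.46 ± 0.12 in the MED6 line and -1.06 ± 0.12 in the MED28 line. PLD6, a mitochondrial phospholipase, had effects of -0.86 ± 0.16 in the MED6 line and -1.66 ± 0.17 in the MED28 line. The differences were 0.51, 0.60 and 0.81 on the spike-in scale, where edgeR called none (adjusted p = 0.13, 0.0981 and 0.106), and 0.74, 0.85 and 1.02 under TMM, where all were called (adjusted p = 1.49e-04, 0.0036 and 0.0108). CD3EAP overlaps PPP1R13L and ERCC1, and PLD6 overlaps MPRIP, on opposite strands. On the spike-in scale CD3EAP was called without MED6 dTAG7 C (adjusted p 0.0459).

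In FAM43A, ASIC1 and BDNF-AS the difference went with unequal starting levels. FAM43A (chromosome 3, 194686544 to 194689037, plus strand) had 158, 158 and 128 CPM in the MED6 line with dTAG7, against 168, 163 and 147 CPM with DMSO, and 121, 124 and 123 CPM in the MED28 line with dTAG7, against 300, 261 and 254 CPM with DMSO. The MED28 line with DMSO stood above all the others, and wild-type cells with DMSO, at 151, 146 and 157 CPM, were level with the MED6 line. The effects were -0.10 ± 0.12 in the MED6 line and -1.14 ± 0.12 in the MED28 line, and the difference was 1.04 ± 0.17 (adjusted p = 0.00128), 1.29 under TMM (adjusted p = 1.60e-06) and called in each fit that left out 1 library. Between the lines with DMSO FAM43A differed by -0.77 (MED6 minus MED28, adjusted p = 2.80e-05 by edgeR, and 0.0078 under TMM), a comparison added after seeing the data that called 449 genes (3.59%), or 81 under TMM (0.628%). The median of that comparison over all genes was -0.24 on the spike-in scale.

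ASIC1, an acid-sensing ion channel that the naming rule reached by its p alone, had 31.7, 27.3 and 29.8 CPM in the MED6 line with dTAG7, against 33.0, 29.8 and 19.6 CPM with DMSO, and 29.2, 31.1 and 27.9 CPM in the MED28 line with dTAG7, against 43.0, 49.0 and 46.7 CPM with DMSO. Its difference was 0.80 ± 0.22 (adjusted p = 0.08) and 1.05 under TMM (adjusted p = 0.0174). The TMM call was lost without replicate A of the MED6 line with dTAG7, at 0.87 (adjusted p = 0.0944), and a spike-in call was gained without replicate B (adjusted p = 0.0496). Only the MED28 line with DMSO lay outside the range of the others, and the lines with DMSO differed by -0.79 (adjusted p = 0.00143 by edgeR), or -0.56 under TMM (adjusted p = 0.114).

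BDNF-AS (chromosome 11, 27506838 to 27698174, plus strand), transcribed from the strand opposite BDNF, had 33 counts over 3 libraries of the MED6 line with dTAG7, against 1 with DMSO, and 15 in the MED28 line with dTAG7, against 16 with DMSO. Per spike-in the ratio was 22 in the MED6 line (95% exact counting interval 3.68 to 894) and 0.745 in the MED28 line (0.343 to 1.61), intervals that cover counting error only. The fitted difference was called (adjusted p = 0.0369, and 0.0316 under TMM, by edgeR), but its size depends on the prior count. The lines with DMSO differed in it too (adjusted p = 0.0233 by edgeR, and 0.119 under TMM). The call was lost for BDNF-AS when any library other than MED6 DMSO A, MED6 dTAG7 B or MED6 dTAG7 C was left out (adjusted p 0.0518 to 0.157).

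**Figure D4:**
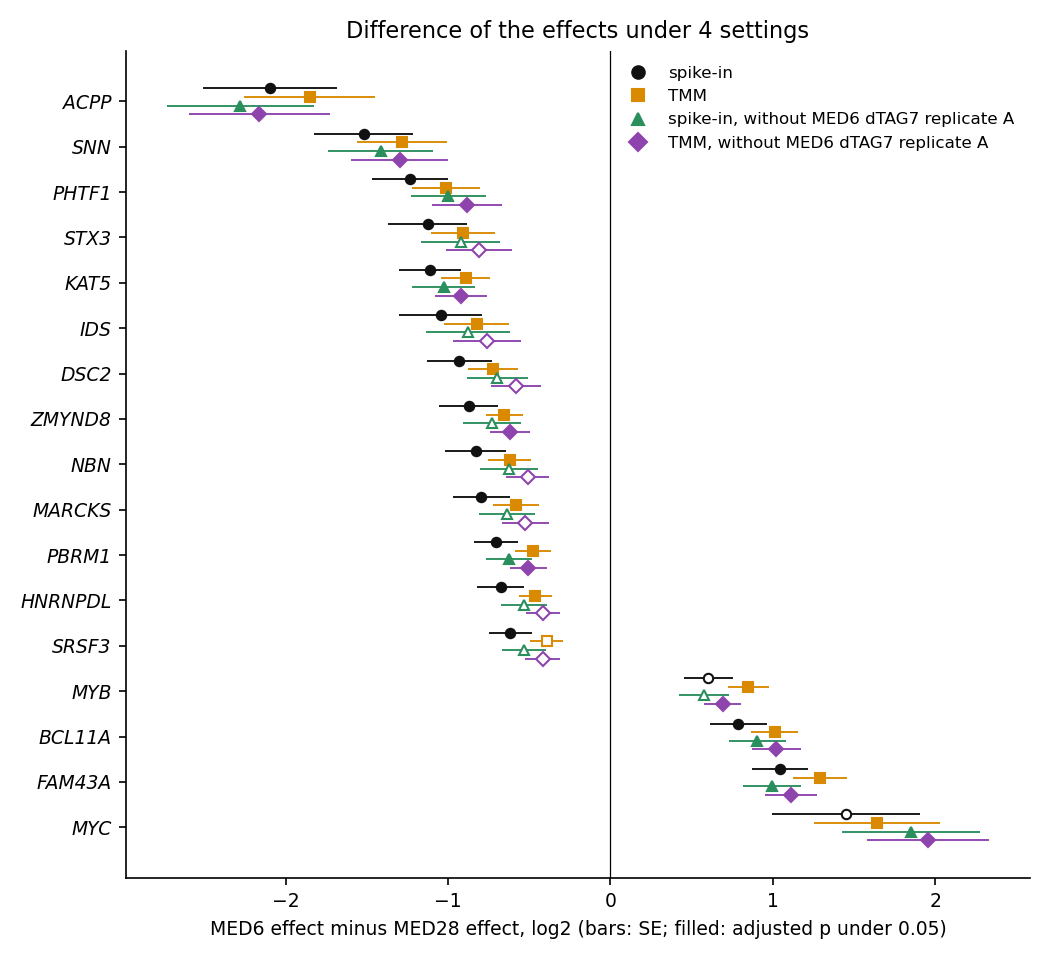
MED6 effect minus MED28 effect (horizontal axis, log2) for 17 genes (rows) on the spike-in scale and under TMM, each with and without replicate A of the MED6 line with dTAG7. Bars are SE and filled symbols have an adjusted p under 0.05. Every gene keeps its sign under all 4 settings, and the TMM values lie to the right of the spike-in values.

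Several transcripts, most of which rose or fell in both lines, had no called difference on the spike-in scale. HEXIM1, the inhibitor of the elongation kinase P-TEFb, rose in both lines. HEXIM1 had 108, 145 and 152 CPM in the MED6 line with dTAG7, against 66.7, 58.2 and 59.5 CPM with DMSO, and 116, 115 and 95.5 CPM in the MED28 line with dTAG7, against 72.0, 46.8 and 54.1 CPM with DMSO. Its effects were 1.14 ± 0.17 in the MED6 line and 0.92 ± 0.17 in the MED28 line, and the difference was 0.22 ± 0.24 (adjusted p = 0.691), with a 95% interval of -0.27 to 0.70. POLR2A, which encodes the largest subunit of RNA polymerase II, rose in both lines as well. POLR2A had 631, 1175 and 1184 CPM in the MED6 line with dTAG7, against 518, 595 and 514 CPM with DMSO, and 949, 941 and 942 CPM in the MED28 line with dTAG7, against 676, 529 and 589 CPM with DMSO. Its effects were 0.88 ± 0.14 in the MED6 line and 0.66 ± 0.14 in the MED28 line. The difference was 0.22 ± 0.20 (adjusted p = 0.619), with an interval of -0.18 to 0.61, but replicate A had the lowest POLR2A level of the MED6 line with dTAG7, and without it the difference under TMM was 0.57 (adjusted p = 0.00328 by edgeR).

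SMIM14, a small membrane protein gene, had few counts and rose in both lines. SMIM14 had 11.6, 16.7 and 17.2 CPM in the MED6 line with dTAG7, against 6.60, 2.02 and 1.57 CPM with DMSO, and 16.5, 18.3 and 11.3 CPM in the MED28 line with dTAG7, against 4.84, 7.0 and 5.24 CPM with DMSO. The effects were 2.34 ± 0.35 in the MED6 line and 1.44 ± 0.30 in the MED28 line, and the interval of the difference was wide, -0.09 to 1.88 (adjusted p = 0.393 by edgeR). HSPA8, the constitutive HSP70 chaperone, fell in both lines, with effects of -0.97 ± 0.15 in the MED6 line and -0.55 ± 0.15 in the MED28 line, with a difference of -0.42 ± 0.22 (adjusted p = 0.365) and an interval of -0.85 to 0.02. BRD2, a bromodomain reader of acetylated histones, rose in the MED6 line (0.67 ± 0.15, adjusted p = 0.00147) and had 0.47 ± 0.15 in the MED28 line (adjusted p = 0.0577 by edgeR). The interval of its difference was -0.24 to 0.63. GATA2, a factor of stem and mast cells, fell in the MED6 line only (-0.46 ± 0.16, adjusted p = 0.0322 by edgeR). Its effect in the MED28 line, -0.30 ± 0.15, was not called (adjusted p = 0.299). The MED6 call was lost under TMM (adjusted p = 0.378) and without replicate A of the MED6 line with dTAG7 (adjusted p = 0.27). GATA2 had a difference of -0.15 ± 0.22 (adjusted p = 0.765) with an interval of -0.58 to 0.28. GATA1 was near the detection limit, at no more than 4.24 CPM in any of the 12 libraries. These p-values do not show that the lines act alike, and the intervals give the sizes that remain possible.

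The transcripts of the targeted subunits themselves did not check the labels, since dTAG7 acts on protein. MED6 mRNA had effects of 0.08 ± 0.15 in the MED6 line and -0.03 ± 0.14 in the MED28 line, and MED28 mRNA of -0.17 ± 0.13 in the MED6 line and -0.42 ± 0.14 in the MED28 line. Neither was called in its own line (adjusted p = 0.75 for MED6 and 0.0684 for MED28 by edgeR), though under TMM MED28 fell in its line by 0.38 (adjusted p = 0.00935). MED28 mRNA stood at 207, 172 and 196 CPM in the MED6 line with DMSO, against 98.4, 78.1 and 84.2 CPM in the MED28 line with DMSO, without overlap. Wild-type cells with DMSO had 195, 228 and 188 CPM of MED28 mRNA. The lines with DMSO differed in MED28 mRNA by 1.14 (MED6 minus MED28, adjusted p = 2.09e-08 by edgeR).

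Of the 24 gene lists, ribosome biogenesis was the only one in which, on the spike-in scale, most members fell in both lines. Of its 40 genes tested, 35 fell in the MED6 line and 35 in the MED28 line, with median changes of -0.48 and -0.61 (log2), against -0.27 and -0.04 over all genes tested. Of all genes tested, 18.4% fell in the MED6 line and 4.07% in the MED28 line. Under TMM 6 fell in the MED6 line and 33 in the MED28 line, and without replicate A of the MED6 line with dTAG7, on the spike-in scale, 26 and 35. PPAN, an assembly factor of the large ribosomal subunit, had effects of -0.64 in the MED6 line and -1.07 in the MED28 line. GAR1, a protein of the RNAs that guide pseudouridylation, had effects of -0.73 in the MED6 line and -0.30 in the MED28 line, where it was not called. The difference of effects was above 0 in 31 of the 40 on the spike-in scale and 39 under TMM, against 24.6% and 50.2% of all genes, with medians of 0.13 and 0.35. No single member was called in the difference on the spike-in scale, and CD3EAP alone under TMM.

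Counts in the other lists moved with replicate A of the MED6 line with dTAG7, without which 5.89% of all genes fell in the MED6 line and 4.76% in the MED28 line. With it, 18.4% and 4.07% fell on the spike-in scale, and 3.65% and 4.33% under TMM. Hematopoietic transcription factors fell in 19 of 35 cases in the MED6 line and 13 in the MED28 line (11 and 13 under TMM), but in 11 and 14 without that library. Their difference was below 0 in 27 on the spike-in scale (median -0.17) and in 15 under TMM (median 0.07). It was above 0 in 8 and 20, where 24.6% and 50.2% of all genes were above 0. Only BCL11A was called in the difference on the spike-in scale, joined by MYB under TMM. Genes for progenitor and immune surface proteins fell in 11 of 16 cases in the MED6 line and 7 in the MED28 line (8 and 7 under TMM, 8 and 7 without that library). ANGPT1 alone of them was called in the difference, under TMM. Of these KIT, the receptor of stem cell factor, had effects of -1.0 in the MED6 line and -0.19 in the MED28 line, and its difference of -0.82 ± 0.21 was not called (adjusted p = 0.0581 by edgeR).

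Other lists had more falls in the MED6 line on the spike-in scale, and lost many of them under TMM or without replicate A of the MED6 line with dTAG7. Of all genes, 18.4% fell in the MED6 line (3.65% under TMM, 5.89% without that library) and 4.07% in the MED28 line (4.33% under TMM). In the MED28 line 0.775% of all genes rose (2.09% under TMM). Heat shock and chaperone genes fell in 17 of 24 cases in the MED6 line (4 under TMM, 11 without that library) and 3 in the MED28 line (3). Proteasome genes fell in 12 of 34 cases in the MED6 line (1 under TMM, 3 without that library), and in 0 in the MED28 line on either scale. Genes of G2 and mitosis fell in 8 of 30 cases in the MED6 line (1 under TMM, 3 without that library) and rose in 2 in the MED28 line (4 under TMM). Their difference was below 0 in 29 of 30, with a median of -0.38 against -0.23 over all genes, and in 22 under TMM, with a median of -0.14 against 0.00. It was above 0 in 1 and 8, where 24.6% and 50.2% of all genes were above 0. CDK1, the kinase that starts mitosis, had effects of -0.50 in the MED6 line and 0.25 in the MED28 line, with a difference of -0.75 ± 0.23 that edgeR did not call (adjusted p = 0.123). None of these groups had a member called in the difference on either scale.

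The genes that separated the MED6 and MED28 effects were then followed in the other Mediator lines of the series. The libraries of those lines, DMSO controls included, were not in the contrast. They were part of the fit on 66 libraries that set the spread behind the calls, so the follow-up is not independent of them. This comparison was added after seeing the data. MED26 joins Mediator to elongation factors and MED12 activates the kinase module. Of the 36 genes lower in the MED6 effect, 18 fell in the MED26 line, where 2.88% of all genes did, and all 36 estimates were below 0 (35 under TMM). The median MED26 effect of the 36 was -0.55 (-0.40 under TMM), against -0.14 over all genes (0.00 under TMM). In the MED12 line 0 fell (3.4% of all genes) and 11 rose (1.57%). Under TMM 13 of the 36 fell in the MED26 line (1.41% of all genes), and 1 fell and 11 rose in the MED12 line (5.7% and 3.06%).

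KAT5 illustrated the pattern. It fell by 1.33 ± 0.14 in the MED26 line (log2, adjusted p = 8.07e-10 by edgeR) and had an effect of 0.18 ± 0.13 in the MED12 line (adjusted p = 0.498). NBN had effects of -0.99 in the MED26 line and 0.13 in the MED12 line, PBRM1 of -0.70 and 0.25, and HNRNPDL of -1.05 and -0.21. On the spike-in scale the first of each pair was called and the second not. Under TMM HNRNPDL fell in the MED12 line as well (-0.25, adjusted p = 0.0190 by edgeR). ACPP fell in the MED26 line (-1.11) and rose in the MED12 line (1.13), as it did in the MED28 line. PHTF1, STX3, DSC2 and MARCKS also rose in the MED12 line, by 0.40 to 0.68.

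Genes with the higher MED6 effect fell more often in the MED12 line than in the MED26 line. They were taken under TMM, which called 22, against 3 on the spike-in scale. The 36 lower genes were taken on the spike-in scale, against 14 called under TMM. Of the 22 called under TMM, 16 fell in the MED12 line (5.7% of all genes), whereas in the MED26 line 1 fell (1.41%) and 2 rose (0.97%), all under TMM. On the spike-in scale 13 of them fell in the MED12 line and 1 in the MED26 line (3.4% and 2.88% of all genes). Their MED26 estimates were below 0 in 14 of the 22 on the spike-in scale and in 5 under TMM. The medians were -0.08 and 0.06, against -0.14 and 0.00 over all genes. Of the 12 genes lower on both scales, 9 fell in the MED26 line (6 under TMM). In the MED12 line 0 of the 12 fell (1 under TMM) and 5 rose (5). Of the 3 higher on both scales, 0 fell in the MED26 line and 2 in the MED12 line, under either scaling. MYC had effects of -0.13 ± 0.27 in the MED26 line and -1.95 ± 0.33 in the MED12 line, MYB of -0.11 and -1.17, and BCL11A of -0.23 and -0.94. These 3 genes were called in the MED12 line and not in the MED26 line. ANGPT1 fell in both lines (-0.44 in the MED26 line, adjusted p = 0.0184 by edgeR, and -1.05 in the MED12 line).

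Tested directly, the MED26 effect minus the MED12 effect was called lower in 23 of the 36 genes on the spike-in scale (1.97% of all genes) and 19 under TMM (1.53%), and higher in 0. It was higher in 17 of the 22 genes under TMM (2.58% of all genes) and 9 on the spike-in scale (0.543%). The 36 genes had a median of -0.85, against -0.18 over all genes. For KAT5 this difference was -1.51 ± 0.19 (adjusted p = 8.10e-07 by edgeR), for MYC 1.82 ± 0.43 (0.0103) and for IDS -0.21 ± 0.24 (0.702). Across all 12515 genes the difference of the head subunits and that of MED26 and MED12 correlated with a Pearson's r of 0.31, and 0.26 under TMM, given as a description over genes from 1 sequencing pool. The MED6 effect correlated at 0.35 with the MED26 effect and 0.15 with the MED12 effect, and the MED28 effect at 0.14 and 0.45.

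The calls behind these lists used replicate A of the MED6 line with dTAG7. Of the 10 genes called lower without it on the spike-in scale, 7 fell in the MED26 line, none fell and 2 rose in the MED12 line, and the MED26 effect minus the MED12 effect was lower in 5. Of the 19 called higher without it under TMM, 15 fell in the MED12 line and 1 in the MED26 line, and that difference was higher in 14, all under TMM.

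In the MED14, MED10 and MED31 lines genes of both lists fell. In the MED14 line, where 63.3% of all genes fell on the spike-in scale (16.6% under TMM), 33 of the 36 (20 under TMM) and 17 of the 22 (13) did. In the MED10 line, where 19% fell (10% under TMM), 13 of the 36 and 12 of the 22 did. Under TMM 12 of the 36 fell and 5 rose there, and 12 of the 22 fell and 2 rose. In the MED31 line, where 2.61% fell (3.02% under TMM), 10 of the 36 (12 under TMM) and 7 of the 22 (7) did. No gene of either list was called in the MED1 line by edgeR on either scale, where 1 gene of all was called under TMM (587 at an unadjusted p under 0.05) and 0 on the spike-in scale (394). KAT5 and MYC had effects of -2.53 and -4.19 in the MED14 line, -1.19 and -3.24 in the MED10 line, and -0.90 and -0.58 in the MED31 line, where MYC was not called.

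**Figure D5:**
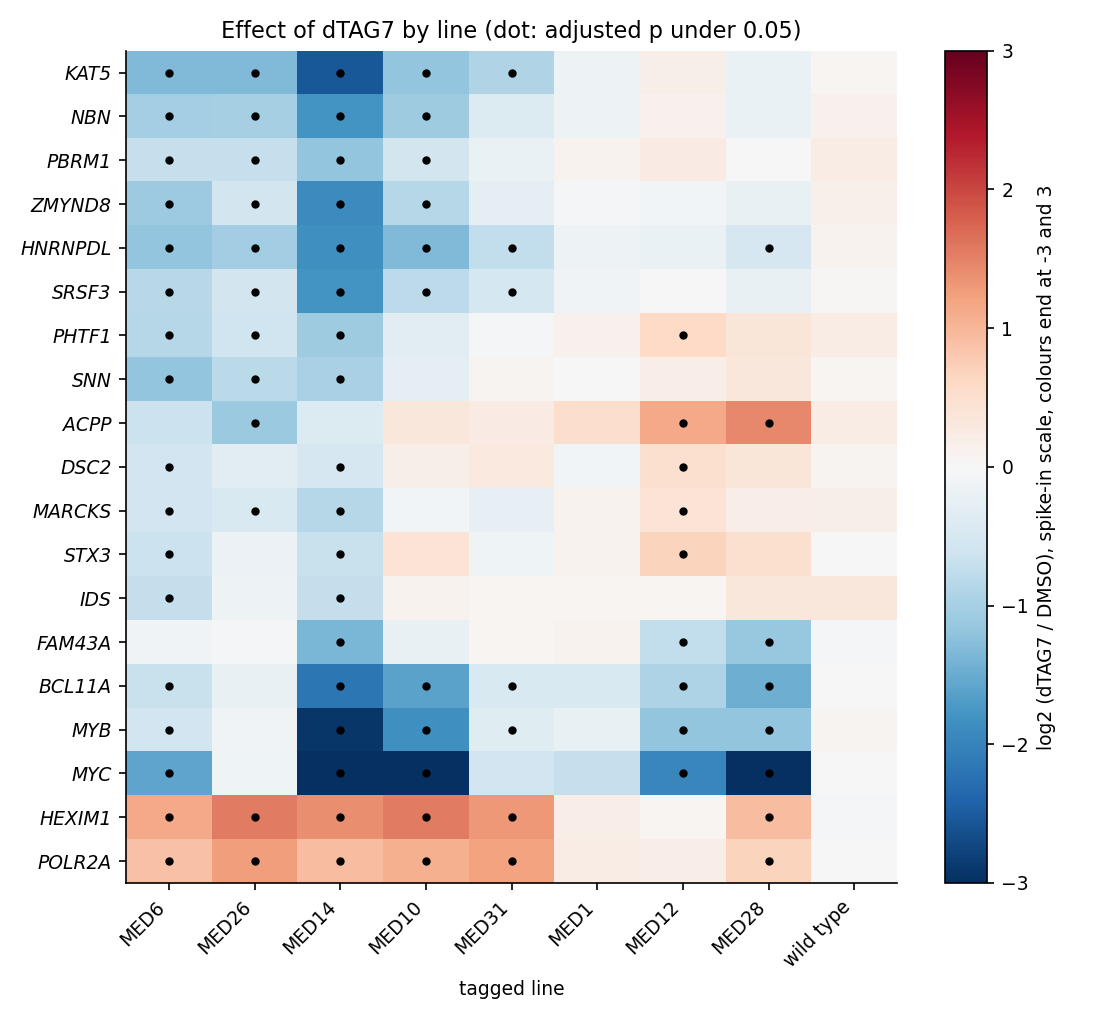
Log2 effect of dTAG7 on the spike-in scale (colour, ending at -3 and 3) for 19 genes (rows) in 8 tagged lines and wild-type cells (columns). Dots mark an adjusted p under 0.05 by edgeR. The upper rows from KAT5 to SRSF3 are blue with dots in the MED6 and MED26 columns and without a dot in the MED12 column, and the rows of MYB and MYC carry dots in the MED28 and MED12 columns and none in the MED26 column.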

How the data were processed

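Each library's RNA was read as 50 bp single reads of 3' ends (QuantSeq), with equal amounts of SIRV-Set-3 spike-in RNA (ERCC and SIRV) added to each lysate, per the labels' protocols. The authors deposited raw read counts for 13375 entries, of which 13331 are genes, 37 ERCC and 7 SIRV. Tools listed in the submitters' processing notes are STAR 2.5.2b, HTSeq 0.6.0 and bedtools 2.26.0, with the build hg38 and no order or settings, and the strand setting is not given in the sources used here. Every gene has at least 70 counts over the 66 libraries and counts in at least 20 of them, so genes with few counts appear to have been removed before deposit. A deposited loess-normalized table was not used.

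All 66 libraries entered 1 model with a mean for each of 22 groups (44 residual degrees of freedom), tested by quasi-likelihood in edgeR 4.0.16 under R 4.3.3, after filterByExpr (12515 genes, 12892 under TMM), with spike-in totals as library sizes. SEs were derived from the F statistic and the log2 fold change, and p-values were adjusted after Benjamini and Hochberg. GENCODE 29 named 13297 genes. Alternatives were TMM, no filter, DESeq2 1.42.0, the 12 libraries alone, the replicate letter as a block and leaving out each library. The 12 libraries alone combined with TMM, or with no replicate A, were added after seeing the data, as were the MED26, MED12 and DMSO comparisons. Intervals are 95%. Named genes were those called on both scales and without MED6 dTAG7 replicate A with a mean of at least 5 CPM, the lowest p-values up to 5 where a direction had fewer, up to 2 called genes per list and direction, and MED6, MED28, MYC, MYB, GATA1, GATA2, HEXIM1, POLR2A, BRD2, SMIM14 and HSPA8. Genes called on both scales, and ING3, SRSF3, ANGPT1, CD3EAP and PLD6, were chosen after their values were seen. The comparison, the 24 gene lists and the naming rule were chosen with earlier results of these data known. The scripts were tested on simulated data. Tables and figures were made with Python 3.11.15, pandas 2.3.3, scipy 1.17.1 and matplotlib 3.10.9.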

Additional observations from a re-analysis of the deposited data

Results flagged for a closer look

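Each of the following transcripts was called in the test of the difference itself (MED6 effect minus MED28 effect, log2, spike-in scale, 3 libraries per group), in the fit on all 66 libraries. The fit on the 12 libraries alone called 0 genes. With 1 of the 12 libraries left out, KAT5, SNN, PHTF1, PBRM1 and FAM43A were called in each of 12 fits, but NBN and BDNF-AS in only 3. The MED6 effect was lower for ACPP (-2.10), SNN (-1.52), PHTF1 (-1.23), STX3 (-1.13), KAT5 (-1.11), IDS (-1.04), DSC2 (-0.93), ZMYND8 (-0.87), NBN (-0.83), MARCKS (-0.79), PBRM1 (-0.70), HNRNPDL (-0.67) and SRSF3 (-0.62). It was higher for BCL11A (0.79), FAM43A (1.04) and BDNF-AS (4.53, a fitted value that depends on the prior count). SRSF3 alone among these was not called under TMM (-0.39, adjusted p = 0.0724 by edgeR). FAM43A and BDNF-AS also differed between the lines with DMSO on the spike-in scale (-0.77 and -3.64, MED6 minus MED28, adjusted p = 2.80e-05 and 0.0233 by edgeR), and the part of this in their differences was not tested.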

How the results depend on the processing

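The 39 genes called in the difference kept their sign under all alternatives in which they were tested, while the number of calls moved, and the cause was not tested. Calls numbered 36 (14 lower, 22 higher) under TMM, 29 (10 lower, 19 higher) under TMM without MED6 dTAG7 A, 0 (0 lower, 0 higher) with the 12 libraries alone (1439 at an unadjusted p under 0.05), 142 (124 lower, 18 higher) with these and no MED6 dTAG7 A, 2 (0 lower, 2 higher) with these and TMM, 35 (32 lower, 3 higher) without a filter and 175 (169 lower, 6 higher) with DESeq2. Leaving out 1 library gave 6 to 134 calls, 5 to 128 lower and 1 to 6 higher, numbering 6 without MED28 DMSO B, 12 without MED28 DMSO C, 12 without MED28 dTAG7 A, 17 without MED28 dTAG7 C, 9 without MED6 DMSO A, 14 without MED6 DMSO B, 18 without MED6 DMSO C, 13 without MED6 dTAG7 A, 134 without MED6 dTAG7 B, 118 without MED6 dTAG7 C, with the others within 1.5 times of 39. The MED6 effect (2406 calls) had 844 under TMM, 542 under TMM without MED6 dTAG7 A, 1372 with the 12 libraries alone, 354 with these under TMM, and 819 to 3049 without 1 library (1547 without MED6 DMSO A, 1567 without MED6 DMSO B, 1471 without MED6 DMSO C, 819 without MED6 dTAG7 A). The MED28 effect (606) had 355 with the 12 libraries alone, 1428 with these and no MED6 dTAG7 A, 1035 under TMM without it, and 336 to 734 without 1 library (336 without MED28 DMSO A, 340 without MED28 dTAG7 B, 366 without MED28 dTAG7 C). The difference in RNA per spike-in ran over -0.25 to -0.10 without 1 library.

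Replicate letters did not pair libraries: same-letter libraries of a line had correlated deviations of 0.00272 to 0.0600. With the letter as a replicate block in the 12 libraries, calls numbered 0 (0 lower, 0 higher) in the difference (1440 at an unadjusted p under 0.05 by edgeR), 1009 in the MED6 effect and 149 in the MED28 effect, and the block left the RNA per spike-in difference at -0.20. Counts of reads without molecular identifiers limit low genes such as BDNF-AS and SMIM14.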

Other observations

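Of the 39 genes called in the difference on the spike-in scale, 24 were not called under TMM, all of them lower in the MED6 effect. Chosen after their values were seen, ETV1, an ETS transcription factor, had effects of -0.80 in the MED6 line, where it was not called, and 1.36 in the MED28 line, where it rose. MGAT4A, a glycosyltransferase, had effects of -0.42 in the MED6 line, where it was not called either, and 0.76 in the MED28 line, where it also rose. KMT5B, a histone H4 methyltransferase, had effects of -0.46 in the MED6 line and 0.16 in the MED28 line. AGO4, an Argonaute protein, had effects of -0.51 and 0.40 in the same order.

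Small nucleolar RNA host genes fell in 14 of 19 cases in the MED6 line and 7 in the MED28 line (6 and 6 under TMM, 8 and 10 without MED6 dTAG7 A), with SNHG3 at -1.16 and -0.59. Of all genes 18.4% and 4.07% fell (3.65% and 4.33% under TMM, 5.89% and 4.76% without MED6 dTAG7 A). In the following lists the share that fell in the MED6 line was no larger than over all genes on the spike-in scale with all libraries. This was not so in every other setting. Of 11 Mediator head genes 2 fell there (0 under TMM, 1 without MED6 dTAG7 A). Of 79 cytosolic ribosomal protein genes 9 did (1 under TMM, 1 without MED6 dTAG7 A), and of 15 mitochondrially encoded genes 0.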
